A study of Mus musculus with 2 samples.

Results

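The collagen chains were followed in the transcripts of primary mouse hepatocytes with and without Drp1, the dynamin-related GTPase encoded by Dnm1l that drives mitochondrial fission. The members were all non-control probes whose gene name in the array design is a collagen alpha chain symbol, Col followed by a type number, the letter a and a chain number. This gave 44 genes with 91 probes on 109 spots, of 37074 gene names, 56605 probes and 59305 spots in all. The control array held hepatocytes labelled wild type, which the study's methods describe as coming from Drp1flox/flox littermates without Cre, and the Drp1LiKO array held hepatocytes of Alb-Cre Tg/+ Drp1flox/flox mice. Both were of the C57BL/6 background, and Cre is driven by the albumin promoter, which is active in hepatocytes. Whether other liver cells kept the gene was not measured here. The study's methods describe purchased C57BL/6 J mice as young adult males, without tying that to these arrays, and the sex and age of the Drp1LiKO and control animals behind the arrays and their number per array are not given in the sources used here. Cells were released by collagenase perfusion, taken from a low-speed pellet, plated on wells coated with collagen type I protein and harvested 24 h after seeding. Each group had 1 array, so the differences below have no replicate check, the number of arrays limits the precision, and no p-value is given.

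Collagens are secreted matrix proteins in which alpha chains wind around each other into a triple helix whose sequence repeats glycine at regular intervals, the Gly-X-Y repeat. Types I, III and V form the banded fibrils of the liver stroma, type IV forms the mesh of basement membranes, type VI forms beaded filaments around cells, and types XV and XVIII are proteoglycan collagens of the basement membrane zone. In liver, hepatic stellate cells and portal fibroblasts are known as the main makers of fibrillar collagens, sinusoidal endothelial cells and stellate cells contribute type IV, and hepatocytes themselves express type XVIII.

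The targeted gene gave a processed signal of 2602 in the control and 1217 in Drp1LiKO at the brighter Dnm1l probe, a log2 ratio of -1.28 after scaling and a Z score of -1.95. The second Dnm1l probe was close to background on both arrays, at 22.8 and 20.9. Signals named below are background-subtracted processed signals before scaling, in arbitrary units, whereas every ratio and fold was taken after each array was scaled to its 75th percentile, 313.4 in the control and 355.6 in Drp1LiKO. A gene was read from its brightest detected probe, and a probe was called detected when its signal was well above background on at least 1 array. A probe that was not well above background on 1 array has only a limit there. The limit is the lowest signal well above background of any probe on that array, or the probe's own signal where that is higher. The difference of such a probe is given as at least a certain fold. That fold holds for this limit and can be smaller under other settings. A difference was taken as past the threshold at a Z score of at least 2 or at most -2 over the log2 ratios of all detected probes. In the main setting this corresponds to 2.46-fold higher or 2.48-fold lower in Drp1LiKO. Under each alternative setting the Z score was taken anew from the ratios of that setting, so the fold at the threshold could change.

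Collagen probes were dim in these cells. Of the 91 probes, 32 (35.2%) were detected on at least 1 array, whereas 53.5% of all probes on the array were. In the control 23 collagen probes were well above background and in Drp1LiKO 27, beside 48.2% and 52.0% of all probes. At the gene level, 25 chains were detected: 15 on both arrays, 7 only in Drp1LiKO and 3 only in the control. Of all 20165 detected genes, 87.9% were detected on both arrays, 9.10% only in Drp1LiKO and 2.96% only in the control. The 19 chains without a detected probe were Col2a1, Col5a2 and Col11a1 of the fibrillar class; Col4a3, Col4a4 and Col4a6 of type IV; Col6a4, Col6a5 and Col6a6 of type VI; Col8a2 and Col10a1; Col9a1, Col9a3, Col19a1 and Col22a1; and Col15a1, Col23a1, Col25a1 and Col28a1. The cartilage collagens Col2a1, Col10a1 and Col11a1 and the kidney and lung basement membrane chains Col4a3 and Col4a4 are among them. Col27a1, also found mainly in cartilage, was detected on both arrays.

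Detection differed between the probe nearest the 3′ end of a chain and its other probes. Among the 30 chains with more than 1 probe, the probe nearest the 3′ end was detected for 14, whereas 8 of the 47 other probes were. Many of the other probes are annotated to a different transcript record of the gene, as for Col1a2 and Col3a1. Place along a transcript was therefore not separated from the transcript targeted. Of the 91 probes, 4 read through the triple helix itself, recognised by an open reading frame with a glycine codon opening each Gly-X-Y unit. They are shown because they carry the collagen repeat, and the glycine codons are in capitals:
Col5a3 probe: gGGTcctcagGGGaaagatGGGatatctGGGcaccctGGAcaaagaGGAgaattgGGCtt
Col6a3 probe: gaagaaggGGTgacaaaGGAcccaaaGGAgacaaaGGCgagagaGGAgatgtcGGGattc
Col11a2 probe: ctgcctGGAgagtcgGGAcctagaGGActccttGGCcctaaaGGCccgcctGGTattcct
Col15a1 probe: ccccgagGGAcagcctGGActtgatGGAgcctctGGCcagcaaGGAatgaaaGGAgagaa
All 4 were not well above background on either array, although another probe of Col5a3, Col6a3 and Col11a2 was detected. For Col6a3 the repeat probe gave 4.15 and 13.3, and for Col5a3 it gave 3.98 and 3.25, in the control and Drp1LiKO respectively. In the mm9 genome these probes lie on chromosomes 9, 1, 17 and 4, and all but the Col15a1 probe span more bases of genome than their 60 bases of sequence, so they cross exon junctions.

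Of the detected chains, 6 were past the threshold as higher in Drp1LiKO (Col1a2, Col3a1, Col5a1, Col6a1, Col6a3 and Col8a1) and 1 as lower (Col17a1); over all 20165 detected genes 3.5% were higher and 2.81% lower. Of these, 4 of the higher chains and the lower chain were not well above background on the array where they were dim. Such a chain entered the count only through the array where it was bright, so that count is not read further. Of the 15 chains measured on both arrays, 2 were higher, Col1a2 and Col5a1, and 0 were lower by the same threshold, beside 2.48% and 1.58% of all 17735 genes measured on both. At the level of probes, 7 of the 32 detected collagen probes were higher and 2 were lower, beside 2.94% and 2.49% of all detected probes. At 2-fold in place of the Z score, 7 chains were higher and 3 lower, beside 5.32% and 4.59% of all detected genes. Both comparisons again include Col3a1, Col6a1, Col6a3, Col8a1 and Col17a1, for which 1 array gives only a limit. The lower probes also include a Col16a1 probe with such a limit. Neither comparison is therefore read further. No test applies to these counts with 1 array a group. The median log2 ratio was 0.10 over these 15 chains, of which 9 lay above 0 and 6 below, and -0.05 over all genes measured on both arrays.

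**Figure D1:**
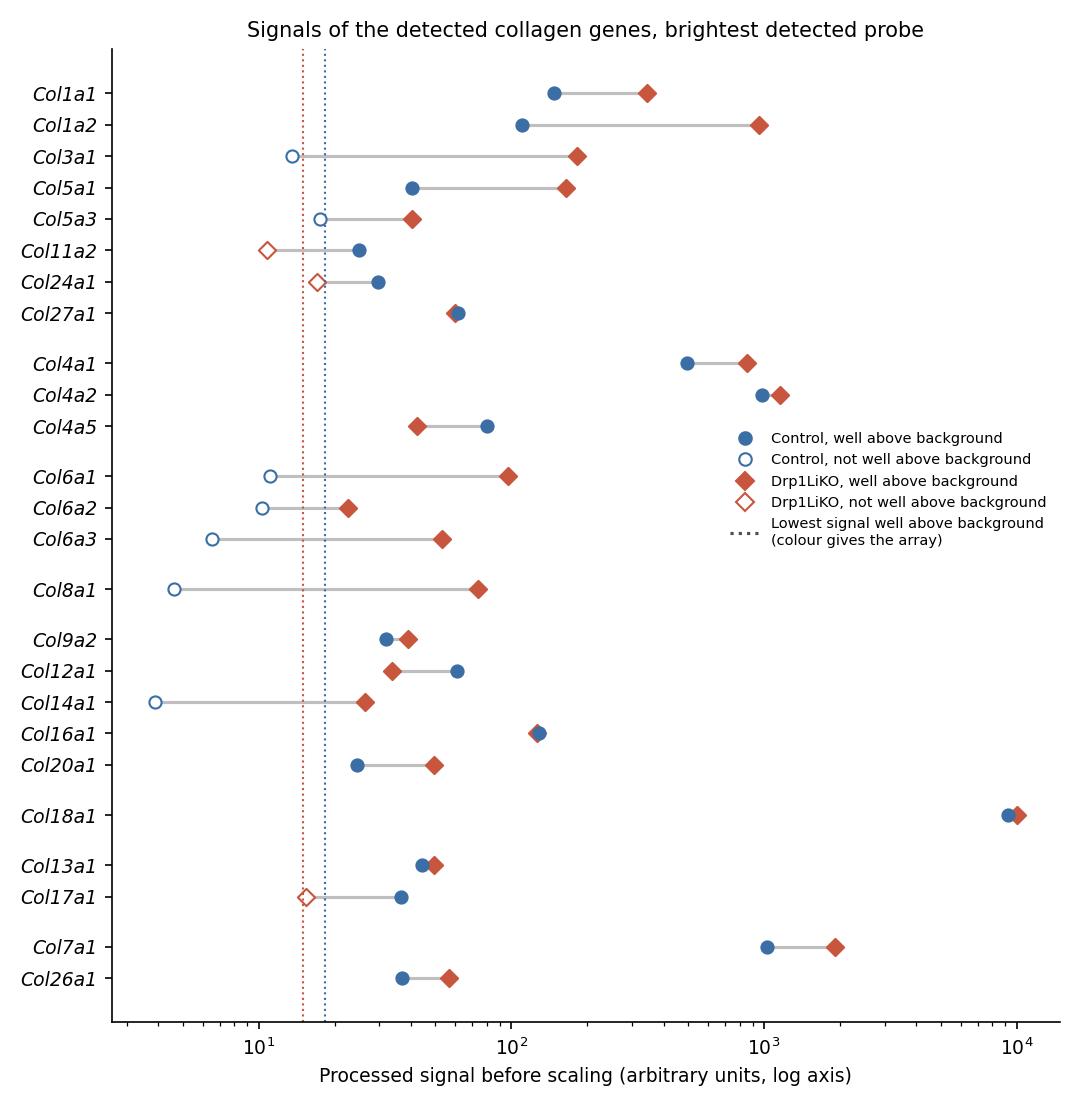
Processed signal before scaling (log axis, arbitrary units) of the brightest detected probe of each of the 25 detected collagen genes on the control array (circles) and the Drp1LiKO array (diamonds), grouped by collagen class. Open symbols were not well above background, dotted lines mark the lowest signal well above background on each array (18.2 in the control and 15.0 in Drp1LiKO), and Col1a2 shows the widest gap among chains measured on both, from 110.4 to 953.2.

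Of type I collagen, the main fibril of scar and stroma, the alpha 2 chain Col1a2 had a signal of 110.4 in the control and 953.2 in Drp1LiKO. This was a 7.61-fold higher level in Drp1LiKO (log2 2.93, Z score 4.50), with a spot noise of 0.14 on the log2 scale. Spot noise here is the SD expected of a ratio from the scatter of replicate spots of similar signal on the same arrays; it covers printing and scanning and not differences between mice or cultures. The probe lies at chr6:4490619-4490678 (mm9, plus strand), and it is the one nearest the 3′ end. The second detected Col1a2 probe, at chr6:4479333-4479392, had 4.07 in the control and 18.3 in Drp1LiKO, too close to the detection limit for a fold. With the median of both probes in place of the brighter one, the log2 ratio of Col1a2 was 1.38, which was still past the threshold.

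The alpha 1 chain, Col1a1, had 147 in the control and 343.1 in Drp1LiKO at its brightest probe, 2.06-fold higher (log2 1.04, Z score 1.61) and short of the threshold. This probe, A_52_P525107, and a second one, A_55_P2118520, are printed 10 times on each array, which makes Col1a1 the chain with the best known spot error. Over 9 unmarked spots the first ranged from 130.6 to 162.1 in the control, and over 10 spots from 312.9 to 376.4 in Drp1LiKO. The second ranged from 126.1 to 168.7 and from 302 to 358.6. Every Drp1LiKO spot was above every control spot for both probes, with SDs between 0.08 and 0.11 on the log2 scale within an array. The probes lie at chr11:94813075-94813134 and chr11:94813115-94813174 (mm9) and share 20 bases, and their log2 ratios of 1.04 and 1.04 are therefore not independent readings.

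**Figure D2:**
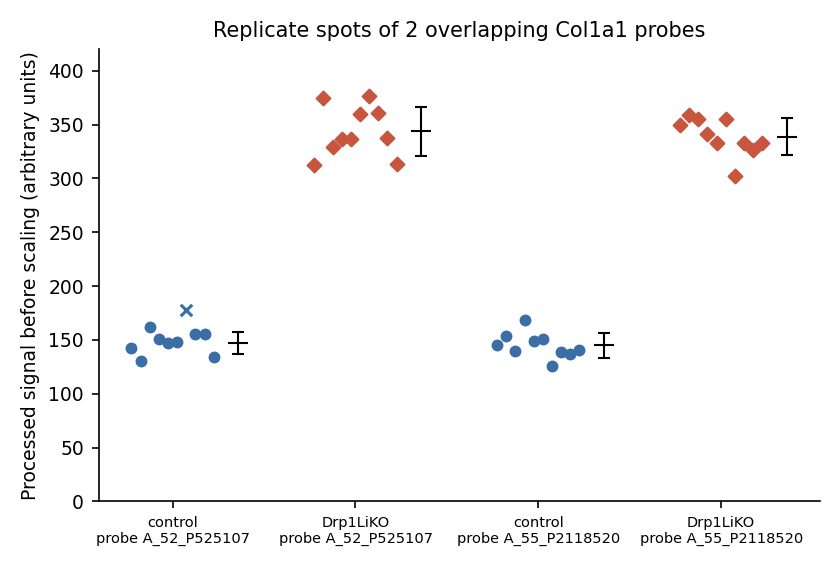
Processed signal before scaling (linear axis from 0, arbitrary units) of each replicate spot of 2 overlapping Col1a1 probes on the control and Drp1LiKO arrays, with the mean and SD of the spots beside them and a cross for the spot marked as an outlier. Drp1LiKO spots lay between 302 and 376.4 and unmarked control spots between 126.1 and 168.7; spots are not samples.

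A further Col1a1 probe downstream, at chr11:94814188-94814247, had 38.3 in the control and 136.5 in Drp1LiKO, 3.14-fold higher (log2 1.65) with a Z score of 2.54. The last Col1a1 probe was not well above background on either array. Thus the 3 detected Col1a1 probes all read higher in Drp1LiKO, and 1 of them was past the threshold. The ratio of Col1a2 exceeded that of Col1a1 by 1.89 on the log2 scale, with a spot noise of 0.19, although both chains assemble into the same trimer. The gap ranged from 0.33, with the median of the detected probes of each gene, to 2.13, with the deposited normalized values.

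Col3a1, the single chain of type III collagen that codistributes with type I, was not well above background in the control (13.5) and had 181.7 in Drp1LiKO, at least 8.79-fold higher. Its probe lies at chr1:45405589-45405648 (mm9). It kept its place past the threshold under all 10 alternative settings that gave it a value. Its log2 ratio of 3.14 fell to 1.57 with normexp background correction, the lowest of these. Its neighbour on chromosome 1 in RefSeq is Col5a2, whose probes were not well above background on either array.

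Of type V, which nucleates type I fibrils, Col5a1 had 40.5 in the control and 164.8 in Drp1LiKO, 3.58-fold higher (log2 1.84, spot noise 0.27), measured by a probe at chr2:27894595-27894654. Col5a3 had 40.4 in Drp1LiKO against 17.5 in the control, where it was not well above background, so at least 1.95-fold higher and short of the threshold. Col5a1 was past the threshold under 10 of 11 alternatives and missed it without a floor for dim signals. With normexp background correction it passed at a log2 ratio of 0.91. The other detected fibrillar chains had log2 ratios below 0. Col27a1, found mainly in cartilage, had 61.5 and 59.7 (log2 -0.23). Col11a2 and Col24a1 were detected only in the control, with 25.0 and 29.7 there, at least 1.90-fold and 1.99-fold lower in Drp1LiKO and short of the threshold.

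The upstream DNA of the chains past the threshold was searched in the RefSeq promoter table (GRCm38.p6), which held 38 windows for 35 of the 44 genes and none for Col1a1, Col2a1, Col4a3, Col5a2, Col9a3, Col12a1, Col14a1, Col22a1 and Col26a1. The 250 bases before the start site are printed, in the direction of transcription, for 4 of the chains past the threshold. They are Col1a2 (chr6:4505368-4505617, plus strand), Col3a1 (chr1:45311288-45311537, plus strand), Col6a1 (chr10:76726045-76726294, minus strand) and Col8a1 (chr16:57754738-57754987, minus strand). No rule set these 4 apart from Col5a1, Col6a3 and Col17a1, whose windows were searched in the same way. Capitals mark matches on either strand to the TATA box TATAAA, the CCAAT box CCAAT, the GC box GGGCGG or the AP-1 site TGACTCA, none of which contains another:
Col1a2: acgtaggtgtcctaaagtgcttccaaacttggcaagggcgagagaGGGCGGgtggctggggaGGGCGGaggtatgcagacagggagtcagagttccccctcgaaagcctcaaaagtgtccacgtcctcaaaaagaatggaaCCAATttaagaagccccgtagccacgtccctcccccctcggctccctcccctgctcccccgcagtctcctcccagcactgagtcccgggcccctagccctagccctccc
Col3a1: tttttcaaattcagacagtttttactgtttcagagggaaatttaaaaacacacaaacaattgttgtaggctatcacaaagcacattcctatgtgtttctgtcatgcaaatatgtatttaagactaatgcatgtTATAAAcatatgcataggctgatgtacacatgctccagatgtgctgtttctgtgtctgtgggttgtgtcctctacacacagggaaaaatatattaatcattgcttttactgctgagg
Col6a1: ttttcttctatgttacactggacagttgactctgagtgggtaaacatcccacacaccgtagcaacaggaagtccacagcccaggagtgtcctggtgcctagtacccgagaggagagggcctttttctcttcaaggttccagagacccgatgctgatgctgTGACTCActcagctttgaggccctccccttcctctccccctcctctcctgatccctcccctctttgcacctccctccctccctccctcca
Col8a1: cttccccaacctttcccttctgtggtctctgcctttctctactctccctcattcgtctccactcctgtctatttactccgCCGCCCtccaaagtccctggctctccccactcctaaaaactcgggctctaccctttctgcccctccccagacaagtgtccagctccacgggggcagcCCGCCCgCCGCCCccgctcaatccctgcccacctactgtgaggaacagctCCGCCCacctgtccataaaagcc
The Col1a2 stretch held 2 GC boxes, beginning 205 and 188 bases before the start site, and a CCAAT box at 109. The Col3a1 stretch, rich in A and T, held a TATA box at 117 and none of the other strings. The Col6a1 stretch held an AP-1 string at 90, and the Col8a1 stretch held 4 GC boxes on the opposite strand. Of the other chains past the threshold, the window of Col5a1 held a GC box, that of Col6a3 none of the strings, and that of the lower chain Col17a1 a TATA box and a CCAAT box. Of the 6 higher chains, 3 held a GC box (Col1a2, Col5a1 and Col8a1), and no string was found in all 6. Of all 32851 windows cut to the same 250 bases, 32.7% held the GC box, 33.8% the CCAAT box, 12.4% the TATA box and 4.46% the AP-1 string, and of the 38 collagen windows 22, 13, 5 and 1 did. A match describes the letters only and is no evidence of a bound factor.

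Type IV collagen, the mesh of basement membranes and of the sinusoidal wall, had no chain past the threshold. Col4a1 had 493.9 in the control and 855.8 in Drp1LiKO, 1.53-fold higher (log2 0.61, spot noise 0.11). Col4a2 had 980.3 and 1158, a log2 ratio of 0.06 with a spot noise of 0.11. These chains form one trimer and are transcribed head to head on chromosome 8, with RefSeq start sites 21 bases apart in the promoter table. Their log2 ratios nevertheless lay 0.55 apart, beyond the spot noise of 0.15, and between 0.50 and 0.56 apart under the alternatives. The probes are at chr8:11199009-11199068 and chr8:11448840-11448899 (mm9), both near the 3′ end. Col4a5, a chain of specialised basement membranes encoded on the X chromosome, went the other way, with 79.8 in the control and 42.3 in Drp1LiKO (log2 -1.10, spot noise 0.26), and fell short of the threshold. Its neighbour Col4a6 had no detected probe.

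Of type VI collagen, whose alpha 1, alpha 2 and alpha 3 chains form beaded filaments that link cells to fibrils, none was well above background in the control and these 3 were in Drp1LiKO. Col6a1 had 11.1 and 96.7, at least 4.68-fold higher (probe at chr10:76171538-76171597), and Col6a3 had 6.52 and 53.2, at least 2.57-fold higher (chr1:92663663-92663722), both past the threshold. Col6a2 had 10.3 and 22.5, at least 1.09-fold higher, which is close to the detection limit on both arrays. Col6a1 and Col6a2 are next to each other on chromosome 10. With normexp background correction the log2 ratio of Col6a1 was 0.92, against 2.225 in the main setting, and that of Col6a3 was 0.45. With normexp or the deposited values, Col6a3 was no longer past the threshold. Col8a1, of the short-chain network collagen of vessel walls, had 4.61 in the control, not well above background, and 73.6 in Drp1LiKO, at least 3.56-fold higher (chr16:57627033-57627092), and it lost its place past the threshold under the same pair of alternatives.

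**Figure D3:**
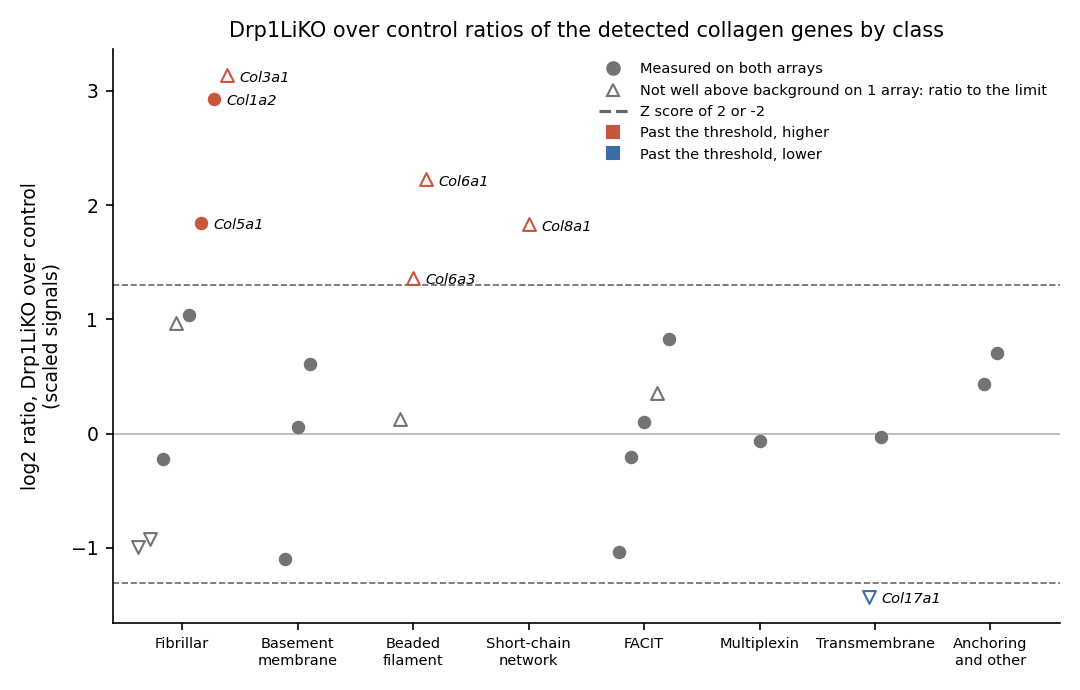
Log2 ratio of scaled signals, Drp1LiKO over control, of the 25 detected collagen genes by class, with dashed lines at Z scores of 2 and -2. Filled circles were measured on both arrays, and open triangles were not well above background on 1 array and stand at the ratio to the limit. The 6 chains above the upper line are fibrillar, beaded filament and short-chain network collagens, and the 3 type IV chains lie from -1.10 to 0.61.

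Col18a1 and Col7a1, with signals far above background on both arrays, did not pass the threshold. Col18a1, the source of endostatin and the type known from hepatocytes, had 9194 in the control and 9986 in Drp1LiKO, a log2 ratio of -0.06 with a spot noise of 0.05. Under the alternatives its ratio stayed between -0.08 and -0.02. Col7a1, the anchoring fibril collagen best known from skin, had 1030 and 1903, 1.63-fold higher (log2 0.70, spot noise 0.10), and -0.06 with the deposited values in place of the array's own signals. Col26a1, a short collagen of ovary and testis, had 37.0 and 56.6 (log2 0.43) and 26.8 and 36.8 (log2 0.28) at overlapping probes, whereas another probe had 20.5 in the control and was not well above background in Drp1LiKO, at least 1.55-fold lower.

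Fibril-associated chains, which coat fibrils and do not form them, went in both directions. Col12a1 had 61.0 in the control and 33.8 in Drp1LiKO (log2 -1.03, spot noise 0.31). Col20a1 had 24.6 and 49.4 (log2 0.83, spot noise 0.31), and Col9a2 had 32.0 and 38.9 (log2 0.10). Col14a1, a fibril-associated chain of mesenchymal cells, was not well above background in the control and had 26.4 in Drp1LiKO, at least 1.28-fold higher. Col16a1 had 128.5 and 126.1 at its brightest probe (log2 -0.21). Its second detected probe, at chr4:129756457-129756516, had 35.5 in the control and was not well above background in Drp1LiKO, at least 2.69-fold lower with a Z score of -2.18, so the probes of this gene did not give the same reading.

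Of the transmembrane collagens, Col17a1, the hemidesmosome collagen of epithelia, had 36.6 in the control and 15.4 in Drp1LiKO, where it was not well above background, at least 2.69-fold lower. It was the only chain past the lower threshold, and it was no longer past it with normexp background correction, with the deposited values or without a floor. Col13a1 had 44.5 and 49.4, a log2 ratio of -0.03, but 2.43 and past the upper threshold with the deposited values.

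The genes that build and process collagen were read from lists of related genes. Of 23 biosynthesis genes, 20 were detected, 2 were past the threshold as higher and 0 as lower, with a median log2 ratio of -0.10. Serpinh1, the collagen-specific chaperone HSP47, had 110.6 in the control and 745.9 in Drp1LiKO, 5.94-fold higher. Fkbp10, a prolyl isomerase that works on procollagen, had 67.3 and 428.3, 5.61-fold higher. The next highest gene measured on both arrays, P3h4, had a log2 ratio of 0.58, and the lowest were Crtap, of the prolyl 3-hydroxylation complex, at -0.84 and the lysyl hydroxylase gene Plod1 at -0.60. The catalytic subunit genes of prolyl 4-hydroxylase, P4ha1 and P4ha2, had log2 ratios of 0.38 and -0.38. Creb3l1 had no unmarked spot on 1 array and gave no value.

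Of 14 genes of processing and cross-linking, 11 were detected, 2 were higher, 2 were lower and the median was -0.24. Adamts2, the procollagen N-proteinase, had 23.4 in the control and 165.8 in Drp1LiKO, 6.25-fold higher. Sparc, which binds collagen and aids its deposition, had 6419 and 22010, 3.02-fold higher. In contrast, Lox, the lysyl oxidase that cross-links collagen, had 263.3 and 54.8, 5.46-fold lower, and Pcolce2, an enhancer of the procollagen C-proteinase, had 1023 and 299.4, 3.88-fold lower. Bmp1, which encodes that C-proteinase, had a log2 ratio of -0.33. The other lysyl oxidase genes measured on both arrays, Loxl2 and Loxl4, had log2 ratios of -0.24 and -0.42.

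Of 10 collagen receptor genes, 8 were detected and 2 were higher; of the 5 measured on both arrays 1 was higher, with a median of 0.04. With normexp background correction 0 receptor genes were past the threshold (Itga2 at 0.72 and Lair1 at 0.50), and with the deposited values 1 was. Itga2, the collagen-binding integrin alpha 2 subunit, had 22.5 and 89.2, 3.49-fold higher. Lair1, a collagen receptor of leukocytes, was not well above background in the control and had 57.9 in Drp1LiKO, at least 2.80-fold higher. Itga1 had a log2 ratio of 0.87, whereas Itgb1, the beta subunit common to these integrins, was at -0.05 and Ddr1, a collagen-activated kinase of epithelia, at -0.40. Of 18 other matrix genes, 16 were detected, 6 were higher and 0 were lower; of the 12 measured on both arrays 3 were higher, with a median of -0.26. With normexp 2 were past the threshold, and Lum, Postn, Fbn1 and Tnc, at 0.61 to 0.69, were not. Dcn, the small proteoglycan decorin that binds type I fibrils, had 203.3 and 3848, 16.7-fold higher, and was the highest of these lists among genes measured on both arrays. Tnc and Lamb1 were 3.19-fold and 2.71-fold higher. Lum, Postn and Fbn1 were not well above background in the control and were at least 4.20-fold, 3.51-fold and 3.31-fold higher. Fn1, a matrix gene that hepatocytes express, had a log2 ratio of 0.01, and the basement membrane linkers Nid1 and Nid2 had -0.82 and -1.10.

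Markers of Kupffer and endothelial cells were higher along with these chains. Those of stellate cells, portal fibroblasts and mesothelium were mostly short of the threshold, though most detected ones had log2 ratios above 0. Of 13 Kupffer cell markers 10 were measured on both arrays, 8 of them past the threshold (median 2.43), and the summed signal of the list was 5509 in the control and 21500 in Drp1LiKO. Clec4f and Vsig4 were not well above background in the control and were past the threshold, and Timd4 was not well above background on either array. Vsig4 was short of the threshold with normexp (log2 0.53) and with the deposited values (log2 1.24). Of 15 endothelial markers 11 were measured on both arrays, 6 of them past the threshold (median 1.44). The summed signals of that list were 5022 and 10920, of which Egfl7 gave 3773 and 6941. Lyve1, Gpr182, Tek and Tie1 were not well above background in the control. With normexp Tie1 (log2 0.35) was short of the threshold, whereas Stab2 and Oit3 passed the cutoff of that setting. Their log2 ratios were smaller there, 0.80 and 0.97, than in the main setting, 1.15 and 1.16. Emcn (log2 1.24) was short of it with the deposited values. With normexp 9 Kupffer cell and 9 endothelial markers were past the threshold, beside 10 and 8 in the main setting. Of 14 stellate cell markers 10 were detected, 6 of them in the control and 10 in Drp1LiKO. Their log2 ratios were above 0 for 8 and below 0 for 2, and 2 were past the threshold. Markers detected only in Drp1LiKO entered these counts through the array where they were bright. Of the 6 measured on both arrays 1 was past the threshold, with a median of 0.31. The summed signals of the list were 30450 and 37610, mostly from Acta2 at its brightest probe (21440 and 24640) and Ecm1 (7239 and 7285). That sum therefore says little about the other stellate markers. With normexp 1 stellate marker was past the threshold. Pdgfrb had 4.31 in the control, not well above background, and 75.1 in Drp1LiKO, at least 3.63-fold higher. It was short of the threshold with normexp (log2 0.61). Tagln was 3.46-fold higher, and Reln, with 32.2 and 75.1 (log2 1.04), was higher but short of the threshold. Acta2 had 21440 and 24640 at its brightest probe (log2 0.02), 282.8 and 1474 at another (4.59-fold higher, Z score 3.38), and 4.00, not well above background, and 38 at the last detected one (at least 1.84-fold higher), so the reading of this marker depended on the probe. Lrat, Hand2, Hhip and Ngfr were not well above background on either array, and Des was only in Drp1LiKO (6.47 and 18.5), too close to the limit for a fold. Of 10 portal fibroblast and mesothelial markers 7 were detected, 4 of them in the control and 7 in Drp1LiKO, and 0 were past the threshold (median 0.24). Of these, 6 had a log2 ratio above 0 and 1 below. Msln had 52.5 and 142.8, 2.40-fold higher with a Z score of 1.95. Their list summed to 21660 and 20490, mostly from Fbln2 (14100 and 10340) and Gas6 (6821 and 8989). Upk1b, Upk3b and Gpm6a were not well above background on either array.

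Markers of the labelled cell type were present on both arrays. All 12 hepatocyte markers were detected, 0 were past the threshold, their median was 0.44, and Alb had 219600 in the control and 266700 in Drp1LiKO. Of the 12, 10 had a log2 ratio above 0 and 2 below. With normexp 2 were past the cutoff of that setting, Tat and Tdo2, both at log2 0.98, against 1.28 and 1.06 in the main setting. Tat was also past the threshold with the deposited values (log2 1.47). Pck1 was not well above background in the control and G6pc was not in Drp1LiKO. Of 8 cholangiocyte markers 6 were detected and 0 were past the threshold (median -0.27). The part of non-hepatocyte cells in the collagen differences was not tested. In these bulk samples fewer cells of a type and less RNA per cell cannot be told apart.

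**Figure D4:**
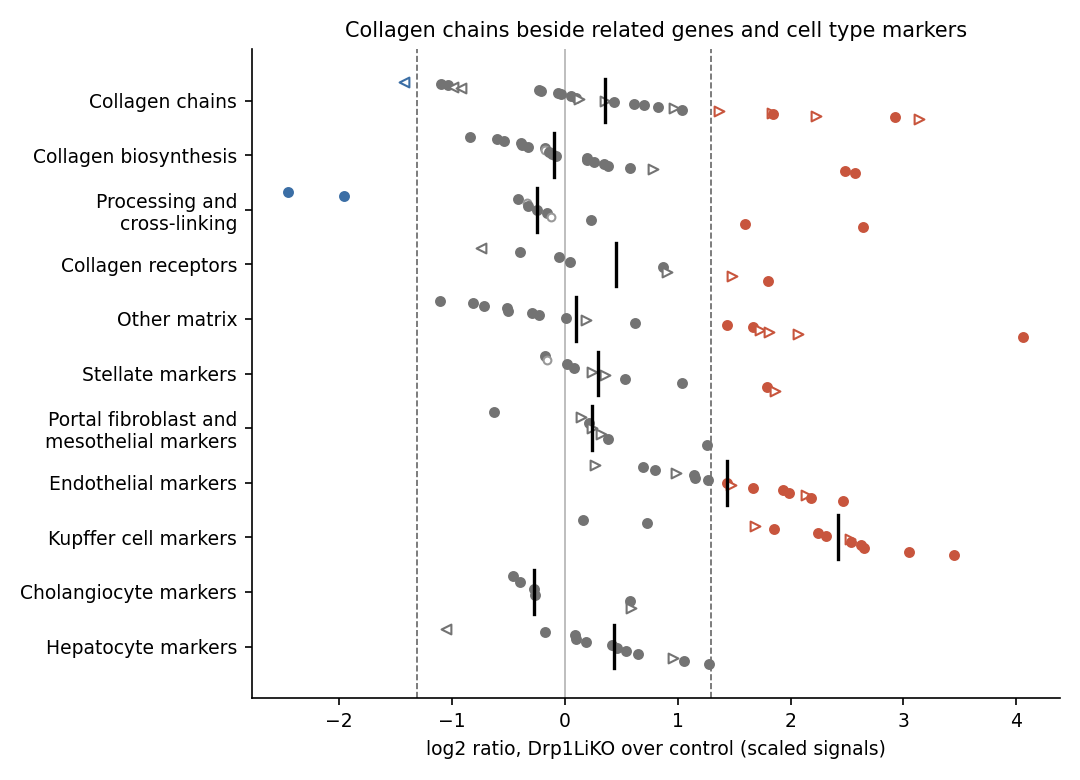
Log2 ratio of scaled signals, Drp1LiKO over control, of the detected genes of each list (1 row a list), with a black bar at the median and dashed lines at Z scores of 2 and -2. Filled circles were measured on both arrays, triangles stand at the ratio to the detection limit, and small open circles were too close to the limit for a fold. Kupffer cell markers (median 2.42 over the detected genes) and endothelial markers (median 1.44) lie to the right, and the collagen chains spread from -1.43 to 3.14.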

How the data were processed

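Total RNA of control and Drp1LiKO hepatocytes was labelled with Cy3 and hybridised to Agilent 1-colour arrays with probes of 60 bases, 1 array per group. The deposited files hold the scanner's spot intensity, and the processed signal in them was background-subtracted by Agilent Feature Extraction, version 9.5.1.1 per the submitters' processing notes and 10.7.1.1 per the file headers, with probe coordinates in mm9. The authors' table of normalized intensity values was used only as an alternative: both columns have a median of 19.1, how they were scaled is not given in the sources used here, and the Drp1LiKO column had a rank correlation of 0.96 with its array, against 1 for the control.

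Outlier spots were left out and spots of a probe averaged; 5 probes with every spot marked on an array were dropped, leaving 56600. Processed signals were scaled to each array's 75th percentile, dim signals were then raised to the lowest signal well above background, and log2 was taken. Of these probes 30275 were detected, at 20165 genes, and Z scores were taken over their ratios (SD 0.65). The study also selected genes by a Z score; over which values it took that score is not given in the sources used here. No spot was saturated. The steps were also run on simulated data, with large changes put only into genes above a set signal. The wide scatter of the real ratios was not simulated, so that run says nothing of the calls of dim chains. Results were recomputed with quantile normalization, with normexp background correction in limma (offset 50), on a scale set by 7 spike-in probes, from the authors' normalized table, with a stricter filter and with none, with dim signals left as they were, with marked spots included, with a Z score from the median absolute deviation, at 2-fold, and with the median of a gene's detected probes.

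Named with full values were chains with a probe past the threshold, all chains of types I, III, IV, V and VI, the 10 brightest chains, chains whose probes differed in sign by over 1 on the log2 scale, and of the related lists the genes past the threshold and the 2 highest and 2 lowest measured on both arrays. Some further genes of the lists were named after their values were seen. The members, the related lists (biosynthesis, processing and cross-linking, receptors, other matrix) and the marker lists (Kupffer, endothelial, stellate, portal fibroblast and mesothelial, cholangiocyte and hepatocyte) were chosen with earlier results of these data known. All 44 collagen names matched a symbol in RefSeq's gene table. Exon and UTR positions of the probes were not analysed here. Analyses used Python 3.11.15, numpy 2.4.6, pandas 2.3.3, R 4.3.3 and limma 3.58.1.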

Additional observations from a re-analysis of the deposited data

How the results depend on the processing

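The count of 6 higher chains was 5 to 8 under all alternatives but a pair: 2 when only probes well above background on both arrays were kept, and 10 with a robust Z score. With the deposited values the 5 higher chains left out Col6a3 and Col8a1 and included Col13a1. The count of 1 lower chain was 0 with normexp, without a floor and with probes well above background on both arrays, 3 at 2-fold and 5 with the robust Z score. With the deposited values it was again 1, but that chain was Col4a5 and not Col17a1. The median log2 ratio of the detected chains, 0.35, ranged from 0.08 with normexp to 0.61 without a floor; with no filter it was -0.47 over all 44 chains, the value that probes dim on both arrays take from the difference of the floors, and the median of all genes was -0.47 there too. Col1a2, Col3a1 and Col6a1 were past the threshold under every alternative that gave a value, and Col1a1 was past it under 4 of 11. The log2 ratio of Col1a1 lay between 0.80 and 1.08 under all settings. Those 4 calls therefore came with another cutoff and not with a larger difference. Over all genes the counts of 705 higher and 566 lower became 1722 and 1443 with the robust Z score and 1073 and 925 at 2-fold, and 1355 were higher with no filter. Scaling to the spike-in probes moved the median of all detected genes from -0.05 to -0.01; it adds one constant to all ratios, so no Z score call could change. No paired analysis was possible because each group had 1 array, and no array could be left out for the same reason. Signal over background was a limit besides the single arrays: 10 of the 25 detected chains were well above background on 1 array only.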
